A study of Mus musculus with 12 samples.

Results

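Expression of 10 genes of the prolactin and growth hormone pathway was followed in mammary tumors and in benign mammary tissue. They were taken by symbol from the deposited count table, which held all 10 among its 16411 genes, and all 10 passed the expression filter. The members are the receptors Prlr and Ghr, the kinase Jak2, the transcription factors Stat5a, Stat5b and Stat3, the feedback inhibitors Socs2, Socs3 and Cish, and the alveolar transcription factor Elf5.

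RNA was sequenced from 6 tumors and 6 benign samples, all from female mice of the FVB background. The mice were heterozygous for MMTV-Neu-NDL-YD5, a transgene in which the MMTV promoter drives an activated Neu receptor (HER2) in mammary epithelium. Both groups carried the transgene and neither was treated, so the benign samples were not wild-type tissue. Benign tissue was mammary tissue with no visible tumor, and the tumors and benign samples came from different mice, whose individual ages the labels do not give. Benign libraries held 5240853 to 8170687 counts and tumor libraries 6111393 to 8588567. The labels do not say that each sample is a separate animal, so p-values measure the spread between these samples. Erbb2 was at 56.8 ± 11.2 CPM (a gene's count per megacount of TMM-scaled library, mean ± SD, n = 6 per group throughout) in benign tissue and 7411 ± 5090 CPM in tumors, the groups being fully separated.

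Prolactin and growth hormone bind related cytokine receptors that carry the tyrosine kinase Jak2. Jak2 phosphorylates Stat5a and Stat5b, which then enter the nucleus and switch on target genes. In the mammary gland this pathway, together with Elf5, builds the milk-secreting alveoli of pregnancy, while Stat3 drives the return of the gland after lactation. Cish, Socs2 and Socs3 are made in response to these signals and dampen them.

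Stat proteins bind DNA at a palindrome, TTCNNNGAA, which reads the same on both strands. It was looked for in RefSeq windows of 300 bases around transcript starts (GRCm38.p6, 250 bases before and 50 after the start). The motif was in 2726 of all 32851 windows (8.30%) and in 3 of the 15 windows of the 9 members that matched by symbol. Socs2 had no window, so the motif was not looked for in that gene. The stretches of 30 bases around these 3 matches are shown because they belong to the receptor Prlr and to 2 of the 3 feedback inhibitors, and those of the casein genes Csn1s1 and Csn2 because these are classical Stat5 targets. Capitals mark the motif, and each sequence runs 5′ to 3′ on the strand of its gene.
Prlr, chr15:10223785-10223814, plus strand: ggcaaaatgagTTCTAGGAAtaagggatat
Socs3, chr11:117969502-117969531, minus strand: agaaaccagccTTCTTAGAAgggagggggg
Cish, chr9:107296654-107296683, plus strand: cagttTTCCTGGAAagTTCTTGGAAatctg
Csn1s1, chr5:87666097-87666126, plus strand: atttgtaacaaTTCTTAGAAtttatgtaaa
Csn2, chr5:87699500-87699529, minus strand: atcacgtagacTTCTTGGAAttgaagggac
The match began 110 bases before the start of a Prlr transcript and 154 bases before that of a Socs3 transcript. Cish held 2 copies, which began at bases 1 and 12 of the transcript. These transcripts of Prlr, Socs3 and Cish start inside the gene bounds given below. A match of letters is not evidence of binding.

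Of the 10 members 6 passed the test, 4 of them higher and 2 lower in tumors. Among all 13191 genes tested, 63.0% were called, 28.2% higher and 34.8% lower, so the share of members called was close to that of all genes. The test was edgeR's quasi-likelihood test, with p-values adjusted over all genes tested and read at 0.1. The median log2 fold change of the members was -0.07, against -0.06 for all genes. For 2 members, Ghr and Socs2, tumors and benign samples did not overlap, and 35.9% of all genes were separated in this way (14.7% with all tumors above and 21.2% with all tumors below). Among the members, Socs2 had the largest rise and Ghr the largest fall.

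**Figure D1:**
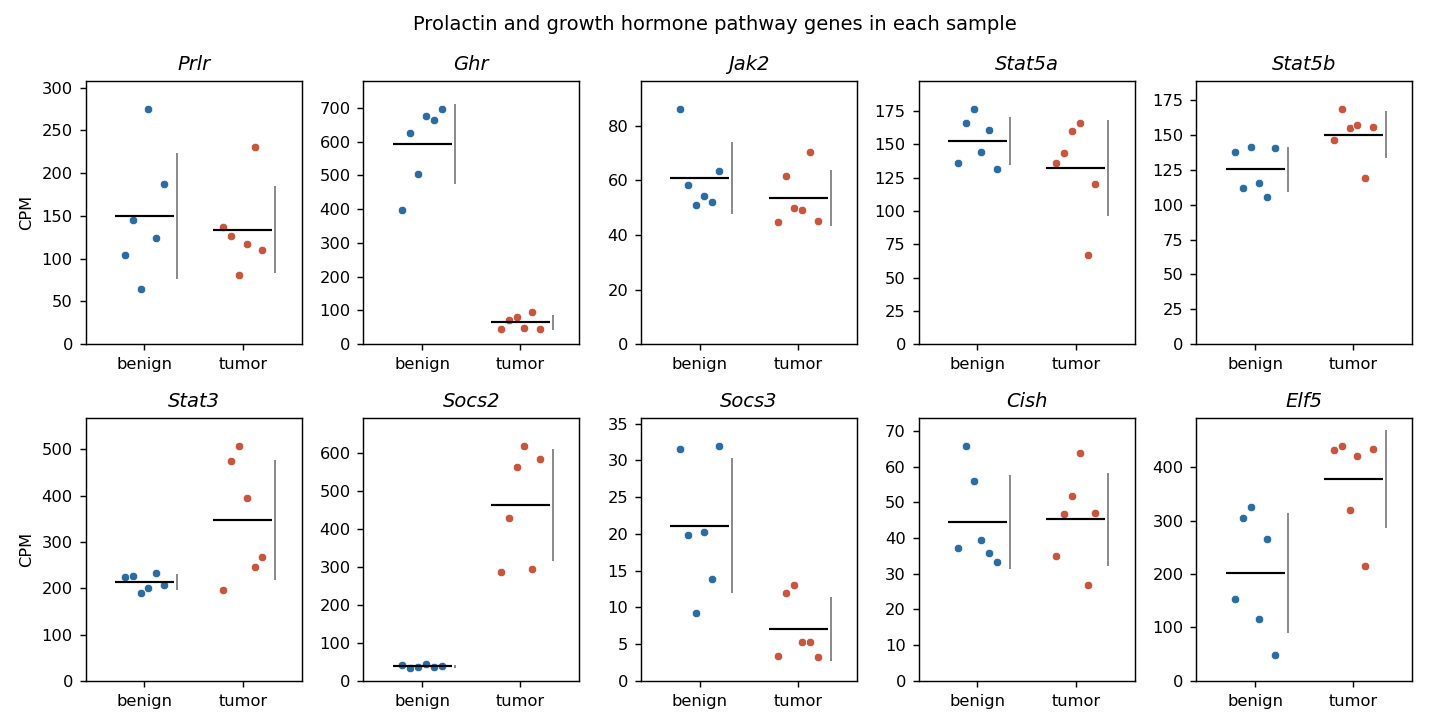
CPM of the 10 genes in each of the 6 benign (blue) and 6 tumor (red) samples, with a linear axis from 0 in each panel. Black lines are group means and grey bars 1 SD on either side. Ghr and Socs2 are the panels without overlap, at 44.5 to 95.9 CPM of Ghr and 286 to 618 CPM of Socs2 in tumors.

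The 2 receptors behaved differently. Ghr, the growth hormone receptor (chr15:3317760-3583492, GRCm38), lay between 397 and 696 CPM in benign tissue (median 644) and between 44.5 and 95.9 CPM in tumors (median 59.8). Every tumor lay below every benign sample, and the mean was 9.20-fold lower (log2 fold change -3.20, SE 0.24, adjusted p = 2.0e-07 by edgeR). Benign sample 1 had the lowest benign value, and tumor sample 5 the highest value among tumors.

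Prlr, the prolactin receptor (chr15:10177238-10349180), had a median of 135 CPM in benign tissue (64.6 to 275) and 122 CPM in tumors (81.4 to 230). All 6 tumors lay within the benign range. The log2 fold change was -0.17 with a standard error (SE) of 0.32 (adjusted p = 0.68 by edgeR), so a difference smaller than the spread between samples would not have been detected. Prlr was highest in benign samples 4 and 6, at 275 and 188 CPM, and in tumor sample 5.

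The ratio of the receptors shifted towards Prlr. Within a sample, the log2 ratio of Prlr to Ghr was -2.10 ± 0.56 in benign tissue and 1.04 ± 0.57 in tumors. The groups did not overlap (difference 3.14, exact permutation test, two-sided, p = 0.00216, adjusted p = 0.0043 over the 8 pairs compared). With 6 samples against 6, 0.00216 is the smallest p-value such a test can give. The ratio is not corrected for transcript length, so its sign does not order the receptors, and in tumors their levels per length overlapped.

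Transcripts of fat differed between the groups as well. All 7 adipocyte markers, Adipoq, Plin1 and Lep among them, were lower in tumors, and their summed level was 7723 to 19080 CPM in benign tissue and 11.4 to 111 CPM in tumors, with none of the 7 at 0 in every tumor. Markers of fibroblasts (5 of 5 lower, summed 2011 to 4657 against 218 to 462 CPM) and of endothelium (4 of 4 lower, 473 to 876 against 68.0 to 82.6 CPM) moved with Ghr too. Their part in the fall of Ghr was not tested, and in bulk tissue fewer cells of a type cannot be told apart from less RNA per cell.

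Jak2, the kinase bound to both receptors (chr19:29251828-29313080), showed no called difference. Benign samples lay between 50.9 and 86.0 CPM (median 56.3) and tumors between 44.8 and 70.5 CPM (median 49.5). Of the 6 tumors 4 lay below the lowest benign sample, while the log2 fold change was -0.19 with an SE of 0.16 (adjusted p = 0.34 by edgeR). The highest tumor was again sample 5.

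The 3 Stat genes lie side by side on chromosome 11, Stat5b at chr11:100780731-100850724, Stat5a at chr11:100859351-100885169 and Stat3 at chr11:100885098-100939540. Stat5a and Stat3 are read towards each other and overlap by 72 bases at their ends. The coding sequences of Stat5a and Stat5b are closely related, and 8.21% of the stretches of 50 bases (the read length) in annotated Stat5a transcripts also occur in Stat5b. Counts in the shared parts rest on how Salmon divided the reads, so the split between these paralogs is less certain than their sum.

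Stat5a had a median of 152 CPM in benign tissue (132 to 176) and 140 CPM in tumors (66.9 to 166). The groups overlapped, with 2 tumors below the lowest benign sample, and the estimate was a log2 fold change of -0.21 (SE 0.19, edgeR adjusted p = 0.37). Tumor sample 5 stood apart, at 66.9 CPM against 120 CPM in the next lowest tumor.

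Stat5b moved slightly the other way. Its median was 126 CPM in benign tissue (106 to 141) and 155 CPM in tumors (119 to 168), and 5 of 6 tumors lay above the highest benign sample. The rise was small, a log2 fold change of 0.26 (SE 0.11, adjusted p = 0.067 by edgeR), and the call was lost without benign sample 4 or 5 (adjusted p = 0.12 and 0.14 by edgeR). Tumor sample 5 was again the lowest.

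Stat3 rose more. Benign samples lay within a narrow range, 189 to 234 CPM (median 216), whereas tumors spread from 197 to 507 CPM (median 331). The highest benign sample was exceeded by 5 of 6 tumors and tumor sample 1 lay within the benign range (log2 fold change 0.70, SE 0.22, adjusted p = 0.015 by edgeR). Without benign samples 3, 4 and 6, in which skeletal muscle markers took 2.67% to 6.43% of the counts, the log2 fold change was 0.65 and the call was lost (adjusted p = 0.1004 by edgeR).

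These shifts changed the proportions of the Stat transcripts. The log2 ratio of Stat5a to Stat3 was -0.49 ± 0.22 in benign tissue and -1.36 ± 0.49 in tumors (difference -0.87, exact permutation test, p = 0.0087, adjusted p = 0.014 over the 8 pairs), and 5 of 6 tumors lay below all benign samples. The ratio of Stat5a to Stat5b fell from 0.28 ± 0.29 to -0.24 ± 0.34 (difference -0.52, exact permutation test, p = 0.017, adjusted p = 0.022), with 4 of 6 tumors below all benign samples. The ratio of Prlr to Stat5a was -0.16 ± 0.82 and 0.00082 ± 0.94, with no call (exact permutation test, p = 0.76).

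**Figure D2:**
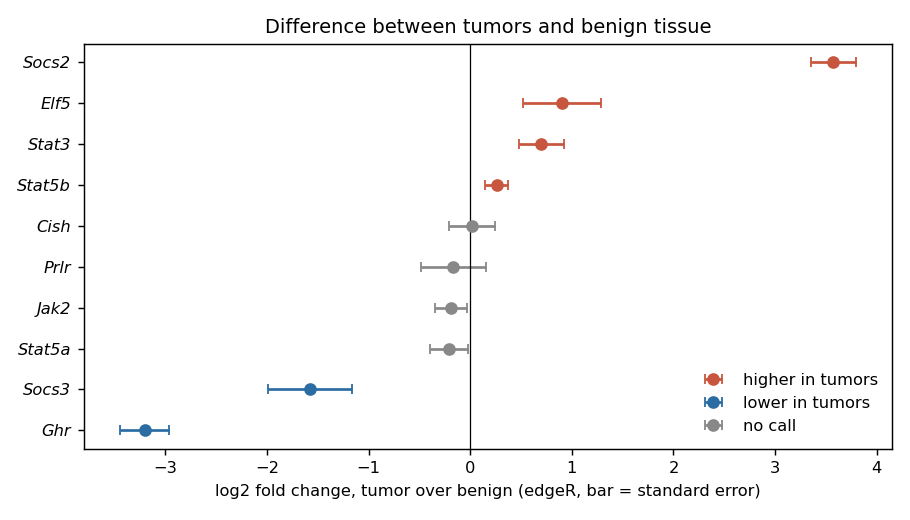
Log2 fold change of each gene between tumors and benign tissue from edgeR, with bars of 1 SE. Socs2 (3.57) and Ghr (-3.20) lie farthest from 0, and Cish, Prlr, Jak2 and Stat5a are not called.

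The 3 feedback inhibitors took 3 different courses. Socs2, which directs the growth hormone receptor to degradation (chr10:95385362-95417180), was nearly constant in benign tissue, at 34.4 to 45.4 CPM (median 37.9), and lay between 286 and 618 CPM in tumors (median 495). Every tumor lay above every benign sample, and the mean rose 11.9-fold (log2 fold change 3.57, SE 0.22, adjusted p = 3.7e-08 by edgeR). Tumors 1 and 5 were the lowest, at 286 and 295 CPM, and the other 4 were at 428 CPM or more.

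Cish, a classical Stat5 target and inhibitor (chr9:107296026-107302784), showed no called difference. Its benign range was 33.2 to 65.8 CPM (median 38.4) and its tumor range 27.0 to 63.9 CPM (median 46.9), with the groups overlapping almost fully. The log2 fold change was 0.02 with an SE of 0.22 (adjusted p = 0.95 by edgeR). Socs2 and Cish stood at similar CPM in benign tissue, with a log2 ratio of Cish to Socs2 of 0.15 ± 0.48, and parted in tumors to -3.33 ± 0.21 (difference -3.49, exact permutation test, p = 0.00216, adjusted p = 0.0043 over the 8 pairs).

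Socs3, the inhibitor best known for restraining Stat3 signaling through the gp130 receptor (chr11:117966079-117970047), fell. It had a median of 20.1 CPM in benign tissue (9.23 to 32.0) and 5.25 CPM in tumors (3.29 to 13.0). Of the 6 tumors 4 lay below the lowest benign sample, and tumors 2 and 3 lay within the lower part of the benign range (log2 fold change -1.58, SE 0.41, adjusted p = 0.0056 by edgeR). These are low levels, with 22 to 108 counts per tumor. The log2 ratio of Socs2 to Socs3 went from 0.99 ± 0.65 to 6.12 ± 0.86 (difference 5.13, exact permutation test, p = 0.00216, adjusted p = 0.0043 over the 8 pairs), the widest change among the 8 ratios.

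**Figure D3:**
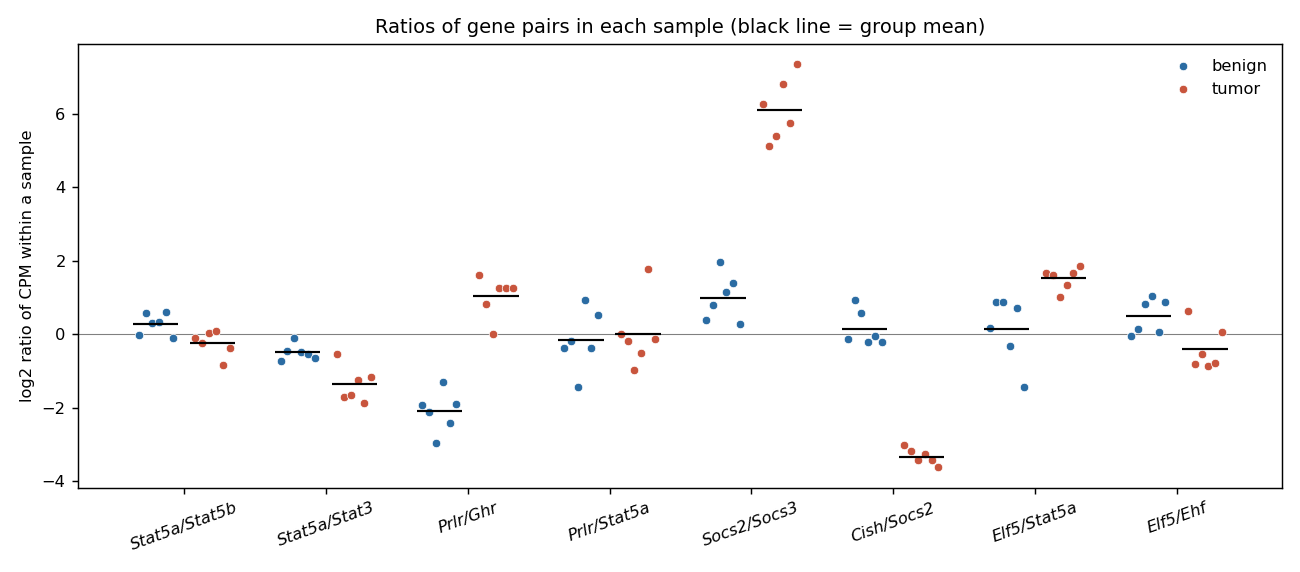
Log2 ratio of the CPM of paired genes in each benign (blue) and tumor (red) sample, with group means as black lines. Socs2/Socs3, Cish/Socs2, Prlr/Ghr and Elf5/Stat5a do not overlap between the groups. All but Elf5/Stat5a hold Socs2 or Ghr, which did not overlap on their own either. The pairs were chosen with earlier results of these data known, and the share of other gene pairs separated was not counted.

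Elf5, an ETS factor that commits luminal cells to the alveolar fate (chr2:103411688-103450989), was higher in tumors. It ranged widely in benign tissue, from 48.3 to 325 CPM (median 209), and from 214 to 440 CPM in tumors (median 427). Of the 6 tumors 4 lay above the highest benign sample, and tumor sample 5 was the lowest (log2 fold change 0.90, SE 0.38, adjusted p = 0.061 by edgeR). The call was lost without benign sample 4 (log2 fold change 0.78, adjusted p = 0.12 by edgeR). Without that sample Stat5b lost its call too, so 2 members were called higher in place of 4.

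Elf5 was lowest in benign samples 6 and 4, at 48.3 and 116 CPM, the samples in which Prlr was highest. Both stood apart in transcripts of other tissues. The summed brown fat markers were at 2955 CPM in benign sample 4 and 807 CPM in benign sample 6, against 31.3 to 178 CPM in the other benign samples. Adipocyte markers were also highest there, at 19080 and 15579 CPM against 7723 to 11707 CPM. The summed epithelial markers were lowest in benign sample 6, at 848 CPM, while benign sample 4, at 1602 CPM, lay within the range of the others. The part of these markers in the levels of Elf5 and Prlr was not tested. Against Stat5a, Elf5 was higher in every tumor than in any benign sample, with a log2 ratio that went from 0.15 ± 0.91 to 1.52 ± 0.30 (difference 1.38, exact permutation test, p = 0.00216, adjusted p = 0.0043 over the 8 pairs).

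Tumor sample 5 was the tumor most often at an extreme. Among the 6 tumors it had the lowest Stat5a, Stat5b, Cish and Elf5 and the highest Prlr, Ghr and Jak2. Its epithelial markers summed to 3995 CPM, the highest of the tumors, and its total count of 7423305 lay within the range of the others. Skeletal muscle markers summed to 122 CPM in this tumor and to at most 7.42 CPM in the other 5, and brown fat markers to 20.1 CPM against at most 8.87 CPM. Their part in its values was not tested.

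Compared per length (CPM per kilobase of annotated exon), Ghr was the most abundant member in benign tissue, at a mean of 65.6, followed by Elf5 at 34.3, whose range overlapped that of Ghr. Stat5b, Stat3 and Stat5a were next, at 22.6, 22.4 and 21.4 with overlapping ranges, so their order was not resolved. In tumors Elf5 came first at a mean of 64.2 and Socs2 moved from last (4.08) to second (48.5), with a range that overlapped that of Elf5, while Ghr stood eighth at 7.13, between Prlr (8.72) and Cish (7.04) with overlapping ranges. Exon lengths came from GENCODE M21, and the transcripts the authors counted may differ.

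Epithelial transcripts were more abundant in tumors, so the members were also read against them. Of 6 epithelial markers, Epcam, Cdh1, Krt8, Krt18 and Cldn7 were higher in tumors and Krt19 was lower (log2 fold change -4.74), and their summed level was 848 to 2238 CPM in benign tissue and 2173 to 3995 CPM in tumors. Relative to the mean log2 CPM of the 6 markers, Ghr was lower by 3.68 (1.65 ± 0.61 against -2.03 ± 0.39), Socs3 was lower by 2.07 and Socs2 was higher by 3.06 (-2.26 ± 0.65 against 0.80 ± 0.41). No tumor overlapped a benign sample for these 3 members (exact permutation test, p = 0.00216 for each, 10 members compared). Socs3 did overlap in CPM. The share of all genes separated on this scale was not counted, so the separation of these 3 has no background. Elf5 differed by 0.68 with no call, and Stat5a was lower by 0.70, a call that was lost without any of 10 of the 12 samples.

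The choice of markers mattered for most members. Without Krt19, a setting chosen after seeing the data, Elf5 differed by -0.39, Stat3 by -0.90 and Stat5a by -1.77. Of these, Stat3 and Stat5a were called. With keratins alone Elf5 differed by 1.92, Stat3 by 1.42 and Stat5a by 0.55, and Elf5 and Stat3 were called. Stat3 was thus called in opposite directions under these marker sets. Ghr and Socs2 kept their direction and their call under every marker set, and Socs3 kept its direction but was not called against the keratins alone.

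The hormones themselves could not be followed. Prl and Gh, the genes for prolactin and growth hormone, were not analysed here. Igf1, which growth hormone induces in many tissues, fell to a mean of 9.30 ± 2.59 CPM in tumors, against 170 ± 18.1 CPM in the benign samples (log2 fold change -4.19, edgeR adjusted p = 3.8e-09), and Igfals, which carries IGF in the circulation, rose (log2 fold change 1.35).

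Among the other Jak and Stat genes, Jak1 (log2 fold change 0.75) and Stat2 (0.84) rose, Jak3 fell (-1.23), and Stat6 (-0.09) was not called. The call of Stat2 was lost without benign samples 3, 4 and 6 (edgeR adjusted p = 0.20).

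Of 15 further SOCS, PIAS, phosphatase and adaptor genes, 5 rose and 6 fell (median 0.14), a share of calls not far from the 63.0% of all genes. Socs5 (0.87) and Pias2 (0.81) rose the most, with every tumor above every benign sample for both. Several values of this list rested on benign sample 1, in which lymphocyte markers summed to 604 CPM against at most 5.67 CPM in any other sample. Without it 7 rose and 2 fell. Leaving out tumor 6 gave 6 and 2, and leaving out tumor 4 gave 5 and 3. The loss of lower calls was therefore not particular to benign sample 1. Socs1 had a log2 fold change of -1.74 with all samples and of -0.89 without benign sample 1, where it lost its call (edgeR adjusted p = 0.12), since that sample was at 15.6 CPM and the other benign samples at 2.12 to 3.83 CPM. Ptpn6, a phosphatase of blood cells, was at 182 CPM in benign sample 1 and 13.9 to 25.8 CPM in the other benign samples. It was not called with all samples (0.17, SE 0.59) and was higher in tumors without that one (1.48, SE 0.17, edgeR adjusted p = 1.3e-05).

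Receptors of the cytokines that act through Stat3 were mostly lower. A list of gp130 cytokines and receptors also held Lepr, the leptin receptor. Of the 9 genes tested in this list, 7 fell and 1 rose (median log2 fold change -1.10), where 34.8% of all genes fell. Without benign sample 1, 5 fell and the median was -0.69. Without tumor 1, 5 fell as well, with a median of -1.13. The adipocyte, fibroblast and endothelial markers described above, all lower in tumors, moved with this list, and their part in it was not tested. Il6st, which encodes gp130 itself, went from 284 ± 58.6 to 109 ± 17.2 CPM (log2 fold change -1.38) and Lifr from a mean of 121 to 56.2 CPM (-1.10), both without overlap. Lepr fell by 2.53 on the log2 scale, and Cntf was at 3 counts or fewer in every tumor, at least 9.51-fold lower. Clcf1 had a log2 fold change of -1.65 that rested on benign sample 1, at 63.5 CPM against 3.87 to 9.79 CPM in the other benign samples, and without it the value was -0.39 with no call (edgeR adjusted p = 0.38). Its call was also lost without tumor 1, 4 or 6 (-1.51 to -1.41). Osmr, the receptor of oncostatin M, rose (log2 fold change 1.02, adjusted p = 0.022 by edgeR).

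Of 8 genes known as Stat5 targets outside the members, 5 fell and 1 rose (median log2 fold change -1.29). The lists share genes, so their counts are not independent. Socs1 is also in the list of inhibitors above, and Tnfsf11 is also among the alveolar factors below. Among all genes 34.8% fell and 28.2% rose, and the share of these targets called was not far from the 63.0% of all genes. Without benign sample 1, 3 fell and the median was -0.81, Socs1 and Pim1 having lost their calls. The call of Pim1 was fragile in general. It was also lost without benign sample 2, 3 or 4 and without tumor 1, 2, 3, 4 or 6. Those that fell included Wnt4 (-5.79) and Tnfsf11, the RANK ligand, which was at 2 counts or fewer in every tumor and at least 56.2-fold lower. Ccnd1, which encodes cyclin D1, rose (0.98), and Bcl6, which Stat5 represses, was not called (-0.06). Wnt4 and Tnfsf11 are made by hormone-sensing luminal cells, and all 5 markers of those cells, Esr1, Pgr, Foxa1, Cited1 and Areg, were lower in tumors (summed 136 to 302 CPM against 15.9 to 23.2 CPM). Their part in the lower targets was not tested.

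Most of the other alveolar factors were higher in tumors, like Elf5. Of 11 tested, 9 rose and 2 fell (median log2 fold change 1.33), where 28.2% of all genes rose, and those that fell were Tnfsf11 and Pgr (-4.71), both hormone-sensing genes. Erbb4, a neuregulin receptor that signals to Stat5 in the gland, rose from 1.99 ± 0.89 to 33.8 ± 11.4 CPM (log2 fold change 4.04). Tfap2c (2.70) and Id2 (2.43) followed, and Gata3 rose by less (1.16, adjusted p = 0.011 by edgeR). The epithelial markers moved with this list, with 5 of 6 higher and a median log2 fold change of 1.19, and their part in it was not tested.

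Among the 5 relatives of Elf5, Ehf rose (1.69), Elf4 fell (-2.12) and Elf1, Elf2 and Elf3 were not called (median 0.30). Without benign sample 1, at 81.9 CPM of Elf4 against 17.4 to 23.2 CPM in the other benign samples, Elf4 was at -1.44 and still called, and Elf1 (0.67) and Elf2 (0.21) were called higher. The ratio of Elf5 to Ehf on the log2 scale fell from 0.48 ± 0.48 to -0.39 ± 0.60 (difference -0.87, exact permutation test, p = 0.019, adjusted p = 0.022 over the 8 pairs). The difference was -0.45 and lost its call without benign samples 3, 4 and 6.

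**Figure D4:**
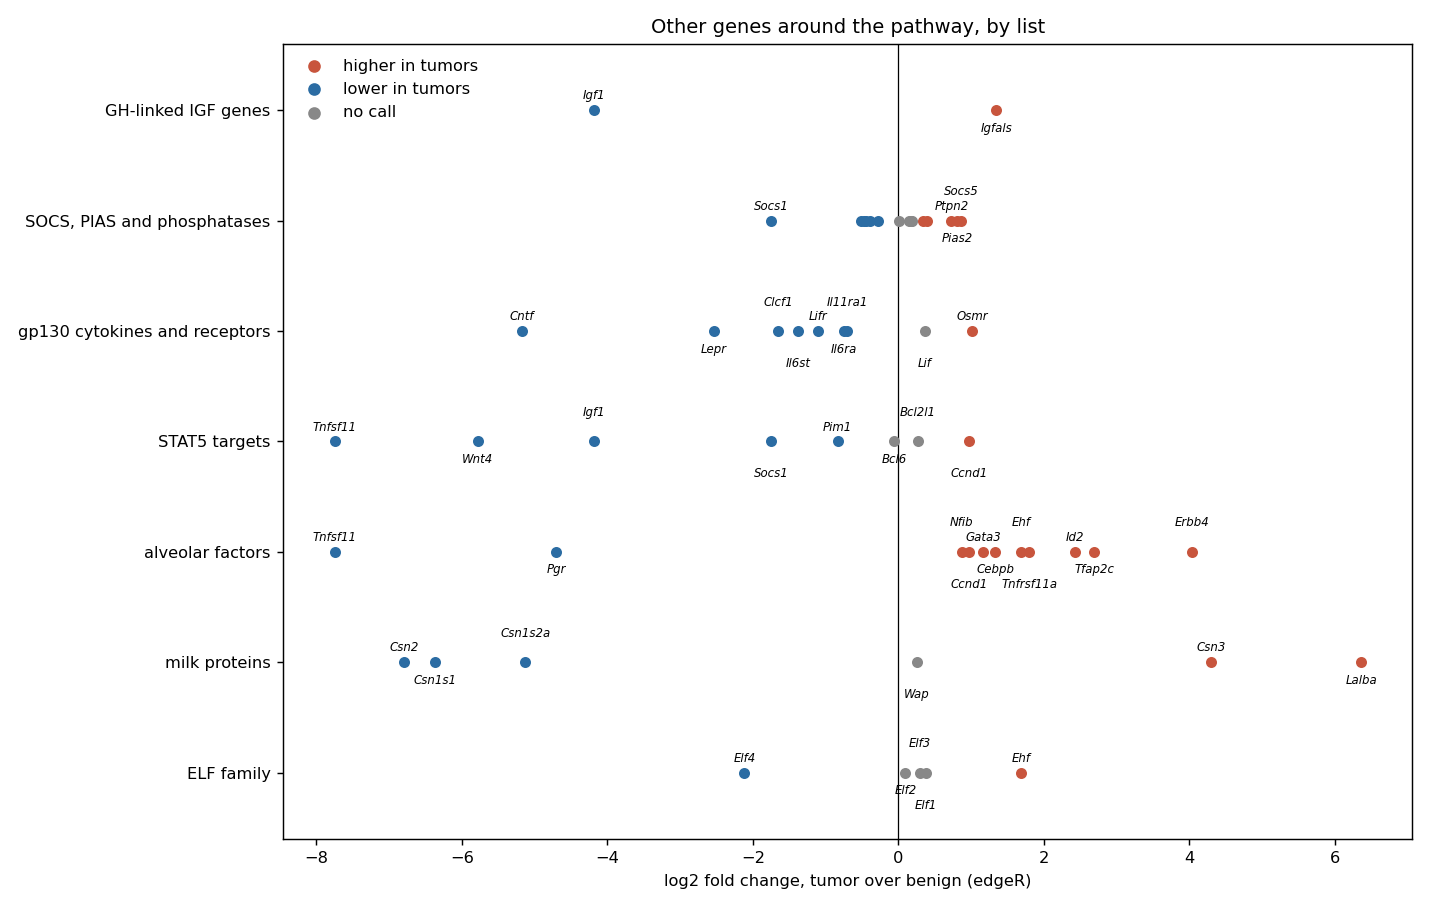
Log2 fold change (edgeR) of the genes tested in 7 lists around the pathway, colored by call. Of 11 alveolar factors 9 lie to the right of 0 in red, 7 of 9 genes in the gp130 list lie to the left in blue, and the milk proteins lie on both sides. The values of Tnfsf11 and Cntf, at the floor in tumors, are fitted and are no bounds.

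The milk proteins divided. Of 6 tested, Csn2 (log2 fold change -6.80), Csn1s1 (-6.38) and Csn1s2a (-5.13) fell, Csn3 (4.31) and Lalba (6.36) rose, and Wap was not called (median -2.44). Csn2 ranged from 67.1 to 4432 CPM in benign tissue and from 0.16 to 53.8 CPM in tumors, while Lalba ranged from 1.30 to 37.4 CPM and from 33.2 to 2503 CPM. The size of the falls rested on single samples. Without benign sample 3 the log2 fold change was -6.03 for Csn2, -5.77 for Csn1s1 and -3.43 for Csn1s2a, and without tumor 2 it was -8.15, -7.40 and -7.28. Lalba was at 7.09 without benign sample 4 and at 8.02 without benign samples 3, 4 and 6, and all 4 kept their calls in these fits. Csn1s1 and Csn2, whose start regions hold the Stat motif shown above, were among those that fell. The start regions of the other milk genes are not described here, so the motif was not compared with the direction of change.

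Other cell types moved between the groups as well. All 7 basal markers tested were lower in tumors (summed 700 to 1556 against 31.9 to 111 CPM), as were all 4 skeletal muscle markers tested, all 3 brown fat markers tested, the 1 lymphocyte marker tested and 4 of 5 macrophage markers. Luminal progenitor markers were mixed, with Kit and Lcn2 higher, Aldh1a3 lower and 2 of 5 not called. Without benign sample 1, the one rich in lymphocyte markers, Ghr, Stat3, Socs2, Socs3, Stat5b and Elf5 kept their calls. Over all the other pathway genes 25 were then higher and 16 lower, in place of 20 and 23 of 57 tested. Leaving out any other single sample gave 19 to 24 of these genes higher and 17 to 23 lower. Calls over all genes shifted the same way without benign sample 1, to 4188 higher and 4309 lower of 13297 tested. With all samples they were 3720 and 4594 of 13191.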

How the data were processed

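RNA from 6 tumors and 6 benign samples, grouped by the labels, was poly A selected and sequenced as paired reads of 50 bases. Per the labels and the methods, the authors trimmed reads with Trim Galore, quantified them with Salmon (mm10) and deposited estimated counts for each gene, whole and unscaled. Versions are not given in the sources used here. Every listed gene sums to at least 5 counts, and 0 columns lacked a sample.

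Genes were filtered with filterByExpr (minimum count 10, minimum total 15), scaled by TMM and compared with edgeR 4.0.16 (R 4.3.3; quasi-likelihood test, two-sided, Benjamini-Hochberg over 13191 genes, called under 0.1). Standard errors are the fold change over the root of the F statistic. Log2 CPM used 2 added counts. Ratios were compared by exact permutation over 924 regroupings, adjusted over 8 pairs. Levels relative to epithelial markers were called on p-values adjusted over these 10 comparisons. The floor, reached where no library of a group exceeded 3 counts, was 3 counts per library. Every pair of replicates differed by more than sampling noise (chi-square per degree of freedom at least 12.5). The edgeR fit was tested on simulated data.

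The members, lists and pairs were chosen with earlier results of these data known. Named genes are the members, the 3 largest calls per list and pathway genes listed by name. A few others are named, after their values were seen, where they make up a small count. Genes below the filter are not described. Members' protein sequences are not used here, and 1 gene of the lists is not reported here. DESeq2 1.42.0, other scalings and filters, a block for the replicate number, a call limit of 0.05 and leaving out samples were tried.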

Additional observations from a re-analysis of the deposited data

Results flagged for a closer look

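Stat5a in tumor sample 5 was at 66.9 CPM, far below the next lowest tumor at 120 CPM. The gap took more of the range of the 6 tumors on the log2 scale (0.646) than Dixon's limit for 6 samples allows (0.625). It was the only value to stand apart in this way among the 20 groups checked, and chance alone gives about 1 in 20. Without that sample the log2 fold change of Stat5a was -0.0071 in place of -0.21, with no call in either case.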

How the results depend on the processing

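Ghr, Socs2 and Socs3 kept their direction and their call in all 21 alternative fits, with log2 fold changes from -3.29 to -3.05, from 3.51 to 3.74 and from -1.78 to -1.37. With a threshold of 0.05, 2 members were higher, since Stat5b and Elf5 lost their calls. Members called higher ranged from 2 to 4 when single samples were left out. Requiring at least 10 counts in every sample left fewer genes to test, and 15 of the other pathway genes (23 in the report's test) and 20 marker genes (42) were then lower. The uncalled Wap was at -0.61 without tumor 3 and Bcl6 at 0.57 without benign samples 3, 4 and 6. Of the 4 uncalled members, Prlr and Cish changed sign, and Jak2 and Stat5a stayed below 0 in all 21. Prlr ranged from -0.32 to 0.095 and Cish from -0.053 to 0.22 when single samples were left out, and without benign samples 3, 4 and 6 they were at 0.14 and -0.0011. For the ratio of Prlr to Stat5a the difference ranged from -0.20 to 0.38 when single samples were left out, and for Elf5 to Ehf it was -0.45 without benign samples 3, 4 and 6.

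Relative to epithelial markers, leaving out single samples gave Stat5a -0.85 to -0.51, Jak2 -0.82 to -0.44, Cish -0.64 to -0.29 and Stat5b -0.38 to 0.028. Without benign samples 3, 4 and 6, Stat5a was at -0.48 and Stat5b at 0.14. With keratins alone Prlr was at 0.71, Jak2 at 0.62, Stat5a at 0.55, Stat5b at 1.07, Stat3 at 1.42, Socs3 at -0.82, Cish at 0.82 and Elf5 at 1.92. Without Krt19, chosen after seeing the data, Prlr was at -1.61, Jak2 at -1.70, Stat5a at -1.77, Stat5b at -1.25, Stat3 at -0.90, Cish at -1.50 and Elf5 at -0.39. Krt19 fell while the other 5 markers rose, so these levels depend on the marker set.

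With the replicate number as a block, 4 members were higher and 2 lower, as without it, and no call of a member, a ratio or a level relative to epithelial markers changed. Of the other pathway genes 20 were then lower, and of the markers 39. Same-numbered samples came from different mice and did not deviate together (correlations from -0.12 to 0.10), and no sample correlated best with its own number. Depth limits Socs3 most among the members, at 22 to 108 counts per tumor.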
